A study of Arabidopsis thaliana with 9 samples.

Results

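Transcript levels of 10 Arabidopsis thaliana flowering-time genes were followed in seedlings. They are the 6 genes of the FLC clade, namely FLC (AT5G10140), FLM (AT1G77080), MAF2 (AT5G65050), MAF3 (AT5G65060), MAF4 (AT5G65070) and MAF5 (AT5G65080), then SVP (AT2G22540) and the floral integrators FT (AT1G65480), SOC1 (AT2G45660) and FUL (AT5G60910). The genes were given by locus identifier, and each matched 1 of the 33602 gene models in the files. They were chosen with earlier results of these data known. All 10 passed the filter on low counts, which kept 22719 models. The 9 libraries, 3 per group, came from seedlings grown in vitro, labelled as biological replicates. One group was the 35S-ASCO line, labelled as overexpressing the long noncoding RNA gene AT1G67105 (ASCO) and also, in the same label, as a promoter trap. A second was labelled a knock-down of AT1G67105 by RNA interference (RNAi-ASCO), and the third was wild type (WT). The accession, the number of independent lines and the number of pooled seedlings are not given in the sources used here. The 35S promoter of cauliflower mosaic virus is active in most plant cells. The age in the labels is 16 days for every 35S-ASCO and WT library and for RNAi-ASCO replicate 3, but 4 days for RNAi-ASCO replicates 1 and 2. The labelled genotype and the labelled age therefore cannot be told apart in most comparisons with that line.

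FLC, its close relatives and SVP encode MADS-domain transcription factors that hold back flowering. FLC and SVP proteins bind the FT and SOC1 genes and keep their transcription low. FT is made in the leaf phloem in inductive day lengths, under the control of CONSTANS (CO), and its protein moves to the shoot apex. There SOC1 and FUL, both MADS-domain factors, take part in turning the apex into an inflorescence.

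Between 27044702 and 126355312 read pairs were counted per library, and 3 pairs corresponded to between 0.0237 and 0.110 CPM (pair counts scaled to library size by the TMM method). ASCO, the altered gene, was examined first. It stood at 3539, 3657 and 3653 CPM in 35S-ASCO, at 16.9, 19.5 and 22.9 CPM in RNAi-ASCO as labelled, and at 6.54, 3.65 and 2.48 CPM in WT. The counts of AT1G67105 thus did not show the knock-down that the label names. Whether they came from the endogenous gene or from a transgene cannot be told from counts per gene model, and was not tested. Every direction given for that line refers to the libraries as labelled, called RNAi-labelled from here on. The summed levels of leaf and of root markers were high in all 9 libraries, but a few genes carried them. The sum over 4 mesophyll genes was 21660 to 22410 CPM in 35S-ASCO, 21340 to 22150 CPM in the RNAi-labelled libraries and 19140 to 22850 CPM in WT. Over 5 root genes it was 3025 to 3222 CPM in 35S-ASCO, 2649 to 2747 CPM in the RNAi-labelled libraries and 2742 to 3286 CPM in WT. In WT the root gene PYK10 averaged 3053 CPM. The other root genes were low there: COBL9 at 6.19, EXPA7 at 6.31, RHD6 at 3.75 and WOX5 at 0.820 CPM. The mesophyll genes averaged 10208 (RBCS1A), 8158 (LHCB1.3), 2666 (CA1) and 73.8 CPM (LHCB2.1) in WT. Of these markers, LHCB2.1 was higher and CA1 (both leaf) and EXPA7 (root) were lower in the RNAi-labelled libraries against WT (fold 2.68, 0.673 and 0.723, edgeR adjusted p = 0.0206, 0.00814 and 0.038), CA1 was higher in 35S-ASCO against the RNAi-labelled libraries (fold 1.41, adjusted p = 0.0196), and none of the 9 passed in 35S-ASCO against WT. Over all genes tested, 11.8%, 6.75% and 1.67% passed in these comparisons. The part of these markers in the results was not tested. Floral organ genes were near 0, with a sum over 5 genes of 0.852 to 1.23 CPM in 35S-ASCO, 0.947 to 1.44 CPM in the RNAi-labelled libraries and 1.47 to 2.03 CPM in WT. LFY, which makes the floral meristem, and AP1 and CAL, which act with it, were too low to be tested. AP1 had at most 2 pairs in any library.

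The start of the MADS box is shown for the 9 members that have one, since the relatedness of these genes decides whether reads can be told apart. Each run gives the first 90 bases from the ATG that opens the MADS domain, 5′ to 3′ on the coding strand, from RefSeq on assembly TAIR10.1, and capitals mark bases that differ from FLC at the same position.
FLC: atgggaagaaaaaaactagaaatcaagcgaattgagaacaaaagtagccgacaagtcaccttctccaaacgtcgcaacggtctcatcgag
FLM: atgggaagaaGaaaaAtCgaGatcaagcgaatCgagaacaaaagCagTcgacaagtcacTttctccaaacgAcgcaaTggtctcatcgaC
MAF2: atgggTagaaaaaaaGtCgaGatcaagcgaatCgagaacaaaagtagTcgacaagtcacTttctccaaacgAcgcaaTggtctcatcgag
MAF3: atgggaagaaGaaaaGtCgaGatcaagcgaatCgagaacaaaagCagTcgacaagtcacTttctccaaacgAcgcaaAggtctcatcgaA
MAF4: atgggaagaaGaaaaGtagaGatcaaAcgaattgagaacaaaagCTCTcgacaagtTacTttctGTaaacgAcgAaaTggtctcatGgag
MAF5: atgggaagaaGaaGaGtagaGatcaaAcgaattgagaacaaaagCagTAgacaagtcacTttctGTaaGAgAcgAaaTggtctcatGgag
SVP: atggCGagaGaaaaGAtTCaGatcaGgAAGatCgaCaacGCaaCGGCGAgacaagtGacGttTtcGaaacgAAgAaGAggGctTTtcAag
SOC1: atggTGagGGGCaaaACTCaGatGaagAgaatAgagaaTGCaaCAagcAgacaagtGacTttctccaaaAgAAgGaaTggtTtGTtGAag
FUL: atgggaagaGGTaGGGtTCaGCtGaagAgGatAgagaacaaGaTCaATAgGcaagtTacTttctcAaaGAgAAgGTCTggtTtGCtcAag
MAF2 differed from FLC at 9 of 90 bases, FLM and MAF3 at 11 each, MAF4 at 16 and MAF5 at 17. FLM and MAF3 differed from each other at 3 bases, the smallest difference among all pairs shown. SOC1, SVP and FUL lay further off, with 32, 35 and 36 differing bases. On the plus strand lie the runs of FLM (chr1:28955679-28955768), MAF2 (chr5:25982415-25982504), MAF3 (chr5:25987527-25987616), MAF4 (chr5:25992310-25992399), MAF5 (chr5:25997671-25997760) and SVP (chr2:9580417-9580506). On the minus strand lie those of FLC (chr5:3179250-3179339), SOC1 (chr2:18810104-18810193) and FUL (chr5:24505924-24506013). Each is exonic coding sequence, and the MAF5 run begins 21 bases inside its annotated coding sequence. FT has no MADS box, as it encodes a small phosphatidylethanolamine-binding protein.

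Few 50-base windows within the annotated exons of these genes were shared exactly with other places in the genome. Of the 50-base windows of annotated exons, 12 of 4287 in FLM (0.28%) and 29 of 1177 in MAF3 (2.46%) also occurred elsewhere in the genome, in MAF3 for FLM, and in FLM and MAF2 for MAF3. For the other 8 members no window did. The windows covered the exons of all RefSeq transcripts, so in FLM and MAF3 they outnumber the bases of the counted model (884 and 939). The shared part of the counted models can therefore differ. Windows across exon joins and near matches were not examined. MAF2 to MAF5 lie head to tail on chromosome 5 between 25982254 and 26002619 on the plus strand, FLC on the minus strand of the same chromosome at 3173382 to 3179448, and FLM on chromosome 1 at 28955483 to 28960234. SVP lies on chromosome 2 at 9579647 to 9583901, SOC1 on chromosome 2 at 18807505 to 18811125, FT on chromosome 1 at 24331373 to 24333999 and FUL on chromosome 5 at 24502434 to 24506269. Among the 10 members only FLC overlaps another annotated gene, the noncoding RNA gene AT5G01675, which runs on the opposite strand and shares 6067 bases with it. AT5G01675 has no model in the files. The libraries are labelled as stranded, but whether counting used the strand is not stated, so FLC counts may include antisense reads. Counts are per single model. RefSeq lists 11 coding structures for FLM, a gene known for its alternative splicing, but the files hold 1 model, so its isoforms cannot be told apart.

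Levels per kilobase of model spanned a wide range. In WT, MAF2 (58.8 ± 2.58 CPM per kb; SD, n = 3) and FLM (56.6 ± 3.28) were highest, and their libraries overlapped. SVP followed at 48.9 ± 1.45 CPM per kb, then SOC1 at 26.0 ± 3.16 and MAF3 at 21.6 ± 0.806. FLC stood at 8.18 ± 0.855 CPM per kb and MAF4 at 3.93 ± 0.829. FUL (2.28 ± 0.384), FT (2.09 ± 0.167) and MAF5 (1.38 ± 0.808 CPM per kb) came last. Libraries of FUL overlapped those of FT, and libraries of FT those of MAF5, while all other neighbours in this order were separate. Over all 9 libraries the highest CPM exceeded the lowest 1.12-fold for MAF3, 1.15-fold for MAF2 and 1.16-fold for FLM, against 3.19-fold for FUL, the most variable member.

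**Figure D1:**
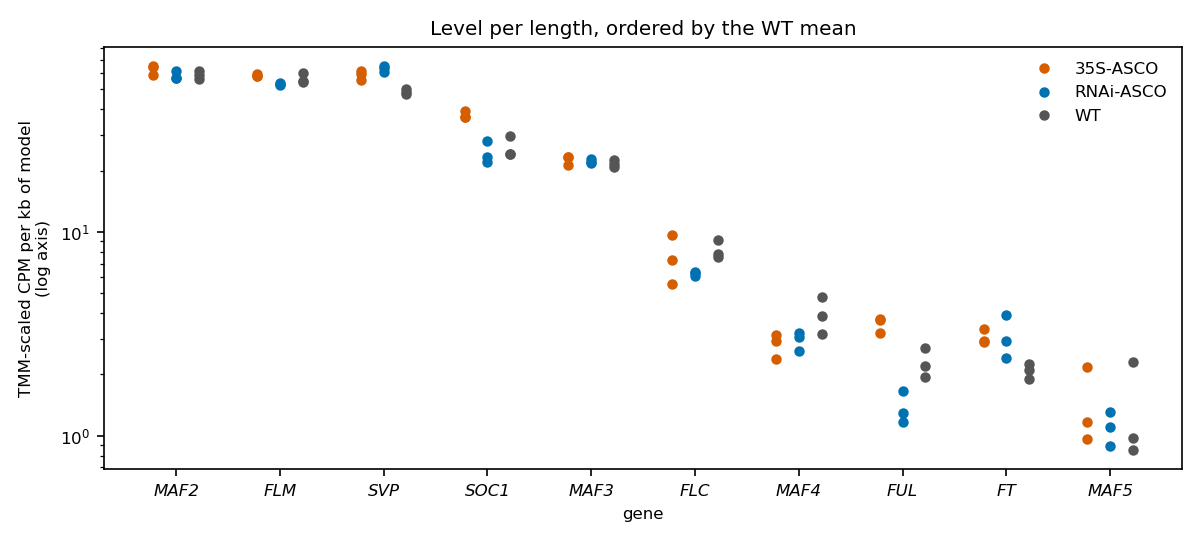
Each point is 1 library's level of a gene in TMM-scaled CPM per kilobase of model on a log axis, with 35S-ASCO, RNAi-ASCO as labelled and WT side by side and genes ordered by their WT mean. MAF2, FLM and SVP lie at the top and MAF5 at the bottom by mean in every group, while MAF4 lies below FUL and FT by mean in 35S-ASCO and above both in WT.

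Across the line comparisons, 2 of the 10 members passed an adjusted p of 0.05 each time (edgeR quasi-likelihood test, Benjamini-Hochberg over all 22719 genes tested). SVP and SOC1 were higher in 35S-ASCO than in WT, where 1.67% of all genes passed. SVP was higher and FUL lower in the RNAi-labelled libraries than in WT, where 11.8% passed. SOC1 and FUL were higher in 35S-ASCO than in the RNAi-labelled libraries, where 6.75% passed. By direction, 1.36% of genes were higher and 0.313% lower in 35S-ASCO against WT, 6.96% higher and 4.82% lower in the RNAi-labelled libraries against WT, and 3.20% higher and 3.55% lower in 35S-ASCO against the RNAi-labelled libraries. Libraries of the groups did not overlap for 5, 5 and 3 of the 10 members in these comparisons, beside 21.9%, 32.4% and 31.4% of all genes tested. The first 2 comparisons share the WT libraries, and the line-to-line comparison shares its libraries with both. The median log2 fold change of the 10 members was 0.146, -0.0951 and 0.118 in these comparisons, beside -0.00711, -0.00572 and 0.00279 over all genes tested.

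**Figure D2:**
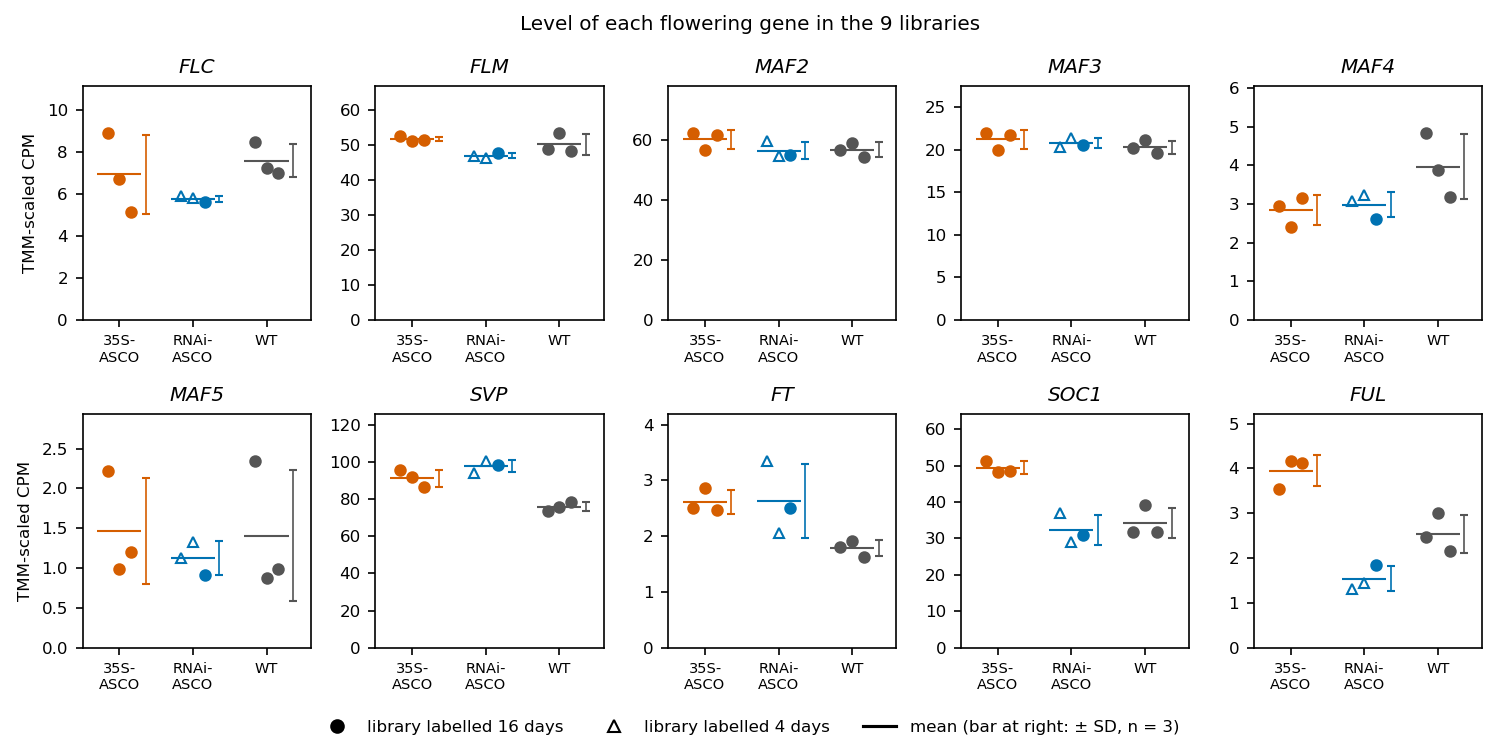
TMM-scaled CPM of the 10 genes in each library, by group, with the group mean as a line and ± SD (n = 3) at its right; open triangles are the libraries labelled 4 days. SVP lies above WT in both lines, SOC1 is between 48.3 and 51.5 CPM in 35S-ASCO, and FUL separates all 3 groups.

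No change passed the test in the FLC clade. None of its 6 genes passed the threshold in any of the 3 comparisons with edgeR, and none did with DESeq2; an unadjusted p under 0.05 was reached by 1 of the 6 each time, MAF4 in each line against WT and FLM between the lines, beside 17.4% of all genes in 35S-ASCO against WT, 27.5% in the RNAi-labelled libraries against WT and 22.9% between the lines. FLC, the central repressor of flowering in the vernalization pathway, had 8.92, 6.73 and 5.14 CPM in 35S-ASCO, 5.88, 5.81 and 5.62 CPM in the RNAi-labelled libraries, and 8.48, 7.26 and 7.0 CPM in WT. All 3 RNAi-labelled libraries lay below all WT libraries, as did 15.5% of all genes tested, whereas the 35S-ASCO libraries spread across and beyond the WT range. The fitted FLC fold change was 0.765 (95% interval 0.581 to 1.01, edgeR adjusted p = 0.192) for the RNAi-labelled libraries against WT and 0.923 (0.706 to 1.21, adjusted p = 0.78) for 35S-ASCO against WT. With only the 3 RNAi-labelled and 3 WT libraries in the fit, FLC passed at an edgeR adjusted p = 0.0489 at a log2 fold change of -0.39.

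FLM, which represses flowering at low temperature as a partner of SVP, had 52.3, 51.1 and 51.3 CPM in 35S-ASCO, 46.8, 46.2 and 47.6 CPM in the RNAi-labelled libraries, and 48.7, 53.4 and 48.1 CPM in WT. The RNAi-labelled libraries were the lowest of the 3 groups without overlap (15.6% of all genes were higher without overlap in 35S-ASCO than in that line, and 15.8% lower), by little: the fold change against WT was 0.935 (95% interval 0.865 to 1.01, edgeR adjusted p = 0.249). MAF2, which delays flowering after brief cold, averaged 60.2 ± 3.18 CPM in 35S-ASCO, 56.4 ± 2.78 CPM in the RNAi-labelled libraries and 56.7 ± 2.48 CPM in WT (SD, n = 3). MAF3, another repressor of the clade, averaged 21.2 ± 1.13, 20.8 ± 0.561 and 20.3 ± 0.756 CPM in the same 3 groups. For both genes the groups overlapped in every comparison. The 95% intervals of the fold against WT ran from 0.97 to 1.16 in 35S-ASCO and from 0.907 to 1.09 in the RNAi-labelled libraries for MAF2, and from 0.958 to 1.14 and from 0.935 to 1.12 for MAF3.

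The low members of the cluster were less certain. MAF4 had 2.96, 2.41 and 3.15 CPM in 35S-ASCO, 3.09, 3.23 and 2.62 CPM in the RNAi-labelled libraries, and 4.85, 3.89 and 3.18 CPM in WT. Every 35S-ASCO library lay below every WT library, the closest pair being 3.15 and 3.18 CPM; 10% of all genes tested were lower without overlap in this comparison. The log2 fold change of MAF4 was -0.45 (SE 0.17 and edgeR adjusted p = 0.211) in 35S-ASCO and -0.40 (SE 0.174, adjusted p = 0.168) in the RNAi-labelled libraries. MAF5, which differs from its neighbours in being induced by vernalization, rested on 35 to 281 pairs per library. It had 2.22, 0.981 and 1.20 CPM in 35S-ASCO, 1.13, 1.33 and 0.913 CPM in the RNAi-labelled libraries, and 2.35, 0.869 and 0.990 CPM in WT. Replicate 1 stood far above the other 2 libraries in both 35S-ASCO and WT. The 95% interval of its fold against WT, 0.615 to 2.16 in 35S-ASCO and 0.44 to 1.65 in the RNAi-labelled libraries, does not exclude a change of either sign.

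SVP, the repressor that acts with FLC on FT and SOC1, was higher in both lines. It had 95.8, 92.0 and 86.6 CPM in 35S-ASCO, 94.5, 101.1 and 98.7 CPM in the RNAi-labelled libraries, and 74.0, 75.9 and 78.5 CPM in WT. No library of either line overlapped WT, while the lines overlapped each other. The log2 fold change against WT was 0.37 (SE 0.0532 and edgeR adjusted p = 0.00324) in the RNAi-labelled libraries and 0.26 (SE 0.053, adjusted p = 0.0411) in 35S-ASCO, and -0.10 (SE 0.0529, adjusted p = 0.291) between the lines. As folds these are 1.29 (95% interval 1.19 to 1.4) and 1.20 (1.11 to 1.3). In the RNAi-labelled libraries the call held in each of the 9 fits that left out 1 library, and the library labelled 16 days alone gave a log2 fold change of 0.38, at an adjusted p = 0.116 with 1 library in that group. In 35S-ASCO the call was lost in 8 of these 9 fits (all but the one without 35S-ASCO replicate 3), with adjusted p-values from 0.0555 to 0.154 and log2 fold changes from 0.23 to 0.29. It was also lost with only the 6 libraries compared (0.26, adjusted p = 0.101).

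**Figure D3:**
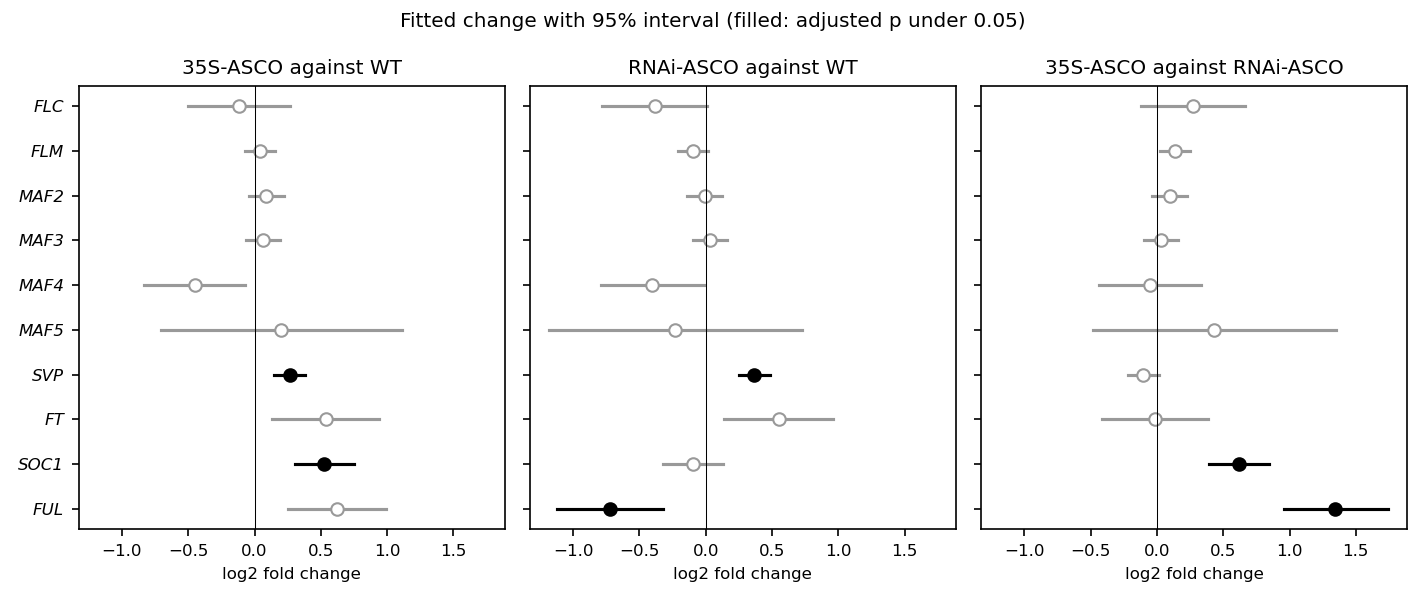
Log2 fold change of each gene in the 3 comparisons, with 95% intervals from the edgeR fit; filled points passed an adjusted p of 0.05. SVP is right of 0 in both comparisons with WT, and FUL lies at -0.72 in the RNAi-labelled libraries against WT and at 1.35 in 35S-ASCO against the RNAi-labelled libraries.

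FT, the mobile flowering signal, was low throughout, with 49 to 316 pairs per library. It had 2.50, 2.86 and 2.47 CPM in 35S-ASCO, 3.36, 2.05 and 2.50 CPM in the RNAi-labelled libraries, and 1.80, 1.92 and 1.63 CPM in WT. Every library of both lines lay above every WT library, as did 11.8% of all genes tested for 35S-ASCO and 16.9% for the RNAi-labelled libraries. Neither difference passed the threshold: the log2 fold change was 0.54 (SE 0.182 and edgeR adjusted p = 0.166) in 35S-ASCO and 0.55 (SE 0.185, adjusted p = 0.085) in the RNAi-labelled libraries. Between the lines the fold was 0.992, with a 95% interval of 0.752 to 1.31. Phloem companion cells are where FT is transcribed. The summed level of their 3 markers SUC2, AHA3 and APL was 355 to 364 CPM in 35S-ASCO, 323 to 334 CPM in the RNAi-labelled libraries and 367 to 387 CPM in WT. In the RNAi-labelled libraries against WT, AHA3 and APL passed the threshold as lower, beside 4.82% of all genes tested. None of the 3 passed in 35S-ASCO against WT, where 1.67% of all genes did. In these bulk samples fewer cells of a type and less RNA per cell cannot be told apart, and the part of cell composition in the FT values was not tested.

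SOC1, an integrator that responds to FT and is repressed by FLC and SVP, was higher in 35S-ASCO. It had 51.5, 48.3 and 48.5 CPM in 35S-ASCO, 36.9, 29.0 and 30.9 CPM in the RNAi-labelled libraries, and 31.9, 39.1 and 31.8 CPM in WT. The 35S-ASCO libraries lay above all 6 others, and the other 2 groups overlapped. The log2 fold change was 0.53 (SE 0.1 and edgeR adjusted p = 0.0378) against WT and 0.62 (SE 0.101, adjusted p = 0.00792) against the RNAi-labelled libraries. That of the RNAi-labelled libraries against WT was -0.09 (SE 0.101, adjusted p = 0.596), with a fold interval of 0.801 to 1.1. The call against WT was lost in 6 of the 9 fits that left out 1 library: without 35S-ASCO replicate 1 or 2, RNAi-labelled replicate 2 or 3, and WT replicate 1 or 3. There its log2 fold change ran from 0.47 to 0.54 and its adjusted p from 0.0535 to 0.135, and with only the 6 libraries compared the adjusted p was 0.0639. The call against the RNAi-labelled libraries held in all 9. With RNAi-labelled replicate 3 alone, so that all libraries are labelled 16 days, it was 0.68 at an adjusted p = 0.117.

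FUL, which promotes inflorescence identity and is known to rise as the plant ages, changed most among the 10. It had 3.55, 4.18 and 4.12 CPM in 35S-ASCO, 1.31, 1.44 and 1.84 CPM in the RNAi-labelled libraries, and 2.46, 3.00 and 2.15 CPM in WT. The groups were separate, with 35S-ASCO highest and the RNAi-labelled libraries lowest. The line-to-line log2 fold change was 1.35 (SE 0.175 and edgeR adjusted p = 0.0026), a fold of 2.54 with a 95% interval of 1.94 to 3.33. Against WT it was -0.72 (SE 0.179, adjusted p = 0.0296) in the RNAi-labelled libraries, and 0.62 (SE 0.167, adjusted p = 0.0931) in 35S-ASCO, where the call was not reached. DESeq2 called FUL in 35S-ASCO against WT, at an adjusted p = 0.0295. The call in the RNAi-labelled libraries against WT was lost in 4 of the 9 fits that left out 1 library, namely RNAi-labelled replicate 1 or 2 and WT replicate 1 or 2. Its log2 fold change there ran from -0.75 to -0.57 and its adjusted p from 0.0654 to 0.111, and with only the 6 libraries compared the adjusted p was 0.0566. The line-to-line call held in all 9.

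Labelled age could be looked at within the RNAi-labelled libraries, as a description only. The placing was taken for the 10 members and not for all genes. A single library set beside 2 can fall outside them without any effect of age. The library labelled 16 days lay between those labelled 4 days for 5 of the 10 genes (MAF2, MAF3, SVP, FT and SOC1), below them for FLC, MAF4 and MAF5 and above them for FLM and FUL. FUL departed most upward, at 1.84 CPM against 1.31 and 1.44 CPM, a ratio of 1.34 to their mean, and MAF5 most downward, at a ratio of 0.742. With that library alone FUL was lower than WT by a log2 fold change of -0.47 (adjusted p = 0.487), while 35S-ASCO exceeded it by 1.09 (adjusted p = 0.185). With 1 library of that age label the spread was taken from the other groups. Without that library the FUL log2 fold change in the RNAi-labelled libraries against WT was -0.89 (adjusted p = 0.0248).

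Markers of the shoot apex, where SOC1 and FUL act, were set beside these values. The sum of STM, WUS, CLV3 and KNAT1 was 19.7 to 21.7 CPM in 35S-ASCO, 25.5 to 27.8 CPM in the RNAi-labelled libraries and 19.9 to 21.5 CPM in WT. STM and KNAT1 passed as higher in the RNAi-labelled libraries against WT, the line in which FUL was lowest, beside 6.96% of all genes. KNAT1 passed as lower in 35S-ASCO against the RNAi-labelled libraries, beside 3.55% of all genes. WUS and CLV3 were too low to be tested, with WUS at 0 pairs in 7 libraries. The part of apex content in the SOC1 and FUL values was not tested.

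The wider flowering network was followed with 8 lists of 83 genes. Upstream of FT, the photoperiod list held the most calls: 10 of its 17 genes were higher and 1 lower in the RNAi-labelled libraries against WT (median log2 fold change 0.302), beside 6.96% and 4.82% of all genes tested. In 35S-ASCO against WT 2 were higher and 1 lower (median 0.152), beside 1.36% and 0.313% of all genes. Between the lines 1 was higher and 2 lower (NF-YB2 higher, named after its value was seen, and CO and GI lower), beside 3.20% and 3.55%. GIGANTEA (GI), the clock-controlled activator of CO, had 40.4, 32.5 and 27.0 CPM in 35S-ASCO, 69.0, 63.6 and 50.5 CPM in the RNAi-labelled libraries, and 13.7, 10.2 and 10.9 CPM in WT. The groups were separate, with log2 fold changes against WT of 1.54 (SE 0.171 and edgeR adjusted p = 0.00613) in 35S-ASCO and 2.41 (SE 0.174, adjusted p = 0.000111) in the RNAi-labelled libraries. CO itself, the direct activator of FT, rose to 4.76 CPM on average in the RNAi-labelled libraries, against 2.62 CPM in WT (log2 fold change 0.85, SE 0.127, adjusted p = 0.0035), and averaged 2.91 CPM in 35S-ASCO (0.15, SE 0.126, adjusted p = 0.578). CDF1, which represses CO, was higher in the RNAi-labelled libraries against WT (log2 fold change 1.52, adjusted p = 0.00361). It had 6.30 and 5.68 CPM in the RNAi-labelled libraries of 4 days and 3.36 CPM in the one of 16 days, against 1.58, 1.67 and 2.02 CPM in WT. With the library of 16 days alone its log2 fold change was 0.93 and the call was lost (adjusted p = 0.133). SPA1, a component of the complex that degrades CO protein in the dark, was higher in both lines (0.45, adjusted p = 0.0367 in 35S-ASCO; 0.72, adjusted p = 0.0012 in the RNAi-labelled libraries). PHYA, the far-red photoreceptor, was lower in both (-0.27, adjusted p = 0.0351; -0.35, adjusted p = 0.00321). The RNAi-labelled replicate 3 alone, set against WT, also lost the calls of CO (0.72, adjusted p = 0.176), SPA1 (0.62, adjusted p = 0.0843) and PHYA (-0.31, adjusted p = 0.172). The calls of SPA1 and PHYA in 35S-ASCO were lost without 35S-ASCO replicate 1 or 2, RNAi-labelled replicate 2 or WT replicate 1 or 3, and that of SPA1 also without WT replicate 2 (adjusted p from 0.0541 to 0.132 for SPA1 and from 0.0562 to 0.127 for PHYA). GI and several of these genes cycle over the day, and the hour of harvest is not given in the sources used here. Its part in these values and in FT was not tested.

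The AP2-like and RAV repressors of FT were higher in the RNAi-labelled libraries than in WT for 5 of 8 genes and lower for none (median 0.316), beside 6.96% of all genes higher and 4.82% lower. These were TOE2, TOE3, SNZ, TEM1 and TEM2, named after their values were seen. None of the 8 passed in 35S-ASCO against WT, where 3 had an unadjusted p under 0.05, as had 17.4% of all genes; over all genes 1280 genes rather than 379 passed there with DESeq2. Between the lines 1 of the 8 passed as lower and none as higher (median -0.24), beside 3.55% and 3.20% of all genes. It was TOE2, lower in 35S-ASCO than in the RNAi-labelled libraries (log2 fold change -0.29, SE 0.0477, edgeR adjusted p = 0.00792). This call was lost in 1 of 17 alternative fits (log2 fold change over the fits -0.323 to -0.243). The losing fit was not one that left out 1 library. It was among the 8 others, which include the fit with RNAi-labelled replicate 3 alone.

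For genes that act on FLC, the shares of all genes tested were 6.96% higher and 4.82% lower in the RNAi-labelled libraries against WT, and 1.67% called and 17.4% at an unadjusted p under 0.05 in 35S-ASCO against WT. Of 11 autonomous pathway genes, which lower FLC, 1 was higher in the RNAi-labelled libraries against WT (CSTF77, named after its value was seen) and none passed in 35S-ASCO against WT, where 0 of the 11 had an unadjusted p under 0.05. The medians were -0.0542 in 35S-ASCO and -0.00117 in the RNAi-labelled libraries. Of 14 FLC activators, 2 were higher and 1 lower in the RNAi-labelled libraries (SUF4 and PIE1 higher, ARP6 lower, likewise named afterwards) and none passed in 35S-ASCO, where 2 had an unadjusted p under 0.05. Of 10 vernalization and Polycomb genes 9 were tested. CLF and LHP1, which maintain silencing at FLC and FT, were lower in the RNAi-labelled libraries (both named after their values were seen), and none of the 9 passed in 35S-ASCO, where 2 had an unadjusted p under 0.05. No gene of these 3 lists passed between the lines by edgeR, with 2, 3 and 3 at an unadjusted p under 0.05, beside 22.9% of all genes. VIN3, which is induced by prolonged cold, had at most 5 pairs in any library.

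**Figure D4:**
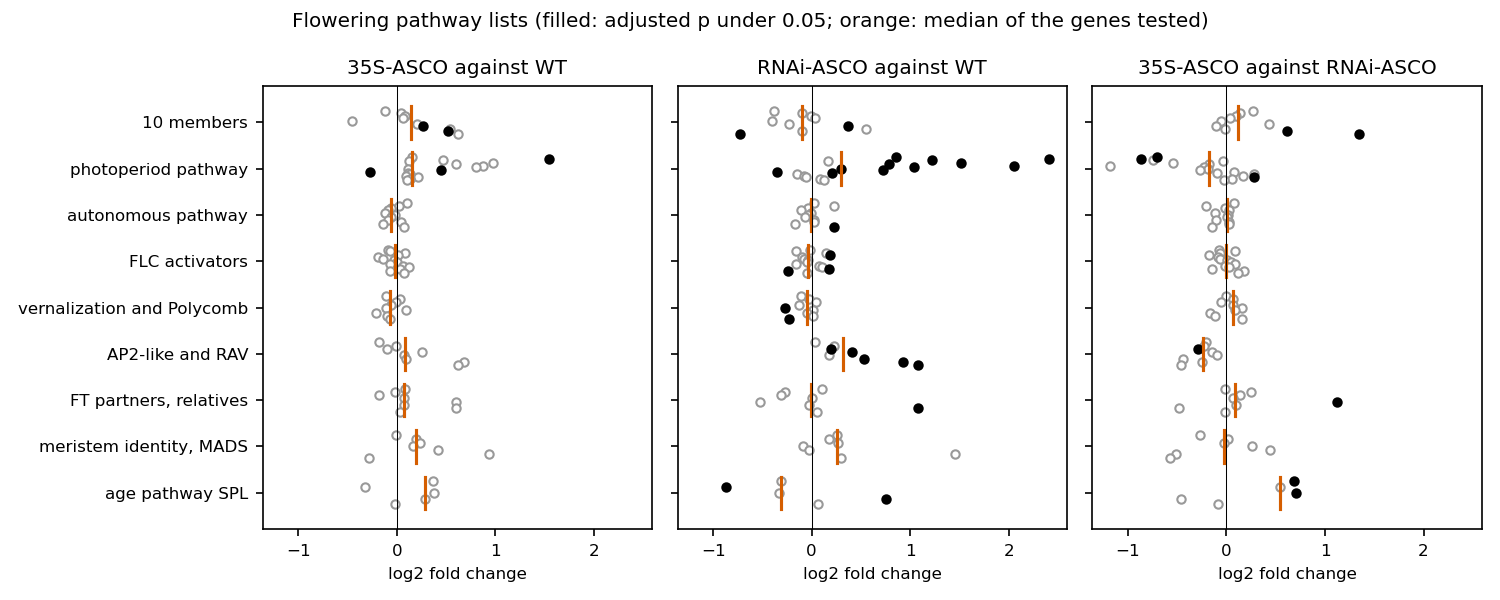
Log2 fold change of every tested gene of the 10 members and the 8 flowering lists in the 3 comparisons; filled points passed an adjusted p of 0.05 and orange bars are medians of the genes tested. The photoperiod list reaches 2.41 (GI) in the RNAi-labelled libraries against WT, while the autonomous pathway and FLC activator medians lie near 0.

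The SPL genes of the age pathway activate SOC1 and FUL. Of 5 tested, 2 passed as higher in 35S-ASCO than in the RNAi-labelled libraries and none as lower (median 0.54), beside 3.20% and 3.55% of all genes. Without overlap of libraries 3 of the 5 were higher and 1 lower, beside 15.6% and 15.8% of all genes. The lower one was SPL9 (log2 fold change -0.46, SE 0.124, edgeR adjusted p = 0.0538). SPL3 had 15.4, 15.5 and 16.4 CPM in 35S-ASCO, 8.62, 10.6 and 10.1 CPM in the RNAi-labelled libraries, and 12.3, 13.3 and 10.9 CPM in WT. Its groups were separate in the same order as those of FUL (line-to-line log2 fold change 0.69, with SE 0.0942 and edgeR adjusted p = 0.00351), and neither line passed against WT. The line-to-line call of SPL3 was lost in 1 of 17 alternative fits, over which its log2 fold change ran from 0.609 to 0.748. That fit was among the 8 that include RNAi-labelled replicate 3 alone, not among those leaving out 1 library. SPL5 also passed between the lines. In the RNAi-labelled libraries against WT SPL9 was higher and SPL4 lower, beside 6.96% and 4.82% of all genes (all 3 named after their values were seen). None of the 5 passed in 35S-ASCO against WT, where 2 had an unadjusted p under 0.05, beside 17.4% of all genes. BFT, a relative of FT that represses flowering, averaged 4.34 CPM in 35S-ASCO and 2.0 CPM in the RNAi-labelled libraries (log2 fold change 1.12, SE 0.163, edgeR adjusted p = 0.00487). Of the 8 FT relatives and partners it alone passed between the lines, beside 3.20% of all genes higher and 3.55% lower. The call of BFT was lost in 1 of 17 alternative fits, again among the same 8 (log2 fold change over the fits 0.998 to 1.21). CO and GI went the other way, at -0.70 (SE 0.124, edgeR adjusted p = 0.0111) and -0.87 (SE 0.162, adjusted p = 0.0134) for 35S-ASCO against the RNAi-labelled libraries. The call of GI was lost without 35S-ASCO replicate 2 or RNAi-labelled replicate 1 or 2 (edgeR adjusted p from 0.0541 to 0.0623). That of CO was lost without RNAi-labelled replicate 2 (0.0579). Among all 17 alternative fits the call was lost in 4 for GI and in 2 for CO. The further losses fell among the alternatives of method, which include RNAi-labelled replicate 3 alone. Over these fits the log2 fold change ran from -1.05 to -0.6 for GI and from -0.813 to -0.567 for CO. Of the FT relatives and partners, 1 of 8 passed in the RNAi-labelled libraries against WT (ATC, higher, named after its value was seen), beside 11.8% of all genes, and none in 35S-ASCO, where 2 had an unadjusted p under 0.05. Of 10 meristem identity and related MADS-box genes, 7 could be tested and none passed in any comparison by edgeR; an unadjusted p under 0.05 was reached by 1 in 35S-ASCO against WT, by 2 in the RNAi-labelled libraries against WT and by 2 between the lines, beside 17.4%, 27.5% and 22.9% of all genes.

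The genes whose log2 CPM followed FLC most closely over the 9 libraries, among the 22719 tested, were XYP1 (AT5G64080, Pearson r = 0.949), AT4G30760 (0.919) and AT3G11460 (0.909). For FUL they were CHIP (AT3G07370, 0.986), AT1G67865 (0.974) and AT2G43530 (0.973). CHIP, whose product is known as a chaperone-binding ubiquitin ligase, had 21.8, 22 and 21.9 CPM in 35S-ASCO, 17.4, 17.6 and 18.7 CPM in the RNAi-labelled libraries, and 20.2, 20.3 and 18.7 CPM in WT. These genes were chosen as the closest of all, and the 9 points fall into 3 groups that the FUL pattern itself separates, so the values are descriptions.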

How the data were processed

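RNA was poly(A)-selected and sequenced as stranded pairs, per the labels' protocols. TopHat2 and Bowtie2 and the build TAIR10 are named in the submitters' processing notes, without versions. The deposited read-pair counts per gene model were made by the authors with sam2pkm, which dropped singletons and reads with equally good alignments, per the file headers. Single-read counts deposited in the same files served as an alternative. Positions, names and sequences came from NCBI RefSeq on TAIR10.1; the counts carry no coordinates.

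Pair counts of all 9 libraries were fitted in edgeR 4.0.16 (R 4.3.3; TMM, filterByExpr, glmQLFit and glmQLFTest, genotype as the only factor), with Benjamini-Hochberg adjustment over 22719 genes and a threshold of 0.05. Intervals are 95%; standard errors came from the F statistic. Likeness used log2 CPM with a prior count of 2. Alternatives were DESeq2 1.42.0, RLE scaling, a floor of 1 CPM in 3 libraries, no filter, a fit of just the 6 libraries at hand, a term for replicate number, single reads, RNAi-ASCO replicate 3 alone, and leaving out each library. The script was tested on simulated data. Between libraries of a group, counts varied on average over genes at least 7.08 times as much as sampling alone. This average need not hold for each gene, such as the low members. All libraries were kept as separate samples, labelled biological replicates. Floors of 3 pairs cover counting error only.

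Groups came from the titles. Named genes were the 10 members, ASCO, up to 5 list genes per comparison by smallest p, and the 3 most like FLC and FUL; other list and marker genes were named after their values were seen. The members and lists were chosen with earlier results of these data known.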

Additional observations from a re-analysis of the deposited data

Results flagged for a closer look

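FUL and SOC1 were noted because the direct test between the lines, 35S-ASCO set against RNAi-labelled seedlings, passed the threshold. For FUL the log2 fold change was 1.35, with SE 0.175 and an edgeR adjusted p = 0.0026: each 35S-ASCO library lay above and each RNAi-labelled library below all WT libraries. For SOC1 it was 0.62, with SE 0.101 and an edgeR adjusted p = 0.00792, and 3 of 3 35S-ASCO libraries lay above all others.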

How the results depend on the processing

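The main limits are these: labelled age is tied to 2 of the 3 RNAi-labelled libraries, and the comparison of 35S-ASCO with WT sits close to the threshold. The threshold was passed by 2677 genes for the RNAi-labelled libraries against WT (first), by 379 for 35S-ASCO against WT (second) and by 1534 between the lines (last). With RNAi-labelled replicate 3 alone, a setting with fewer libraries, 103 and 80 genes passed in the comparisons with that line and 0 of the 10 members did in each. For 35S-ASCO against WT, DESeq2 gave 1280 genes (376 of the 379 among them) and the 6 libraries compared gave 64, with 0 members; the cause was not tested. Leaving out 1 library gave 995 to 3025, 25 to 611 and 432 to 1928 genes, and 1 to 2, 0 to 2 and 2 to 2 members. With the replicate number as a block, 35S-ASCO against WT had 342 genes and 0 members (SVP at an adjusted p = 0.0723, SOC1 at 0.0551), and the other comparisons 2438 and 1355 genes with the same members called. Same-numbered libraries did not deviate together (r from -0.0232 to 0.0763; 3 of 9 libraries correlated best with their own number), so the numbers were not taken as pairs. The altered gene kept its direction and its call throughout. Among the log2 fold changes of single genes, 646 alternative values kept direction and side of the threshold, 53 lost the call, 2 gained it and 17 changed sign, all of members not called. Leaving out 1 library moved these members between the following log2 values. In the first comparison MAF2 ran from -0.05 to 0.0225 (0.000634 with single reads), MAF5 from -0.512 to 0.273 and SOC1 from -0.198 to 0.0143. In the second FLC ran from -0.363 to 0.0699 and MAF5 from -0.234 to 0.702. In the last MAF4 ran from -0.147 to 0.0394 (0.13 with replicate 3 alone), MAF5 from -0.0209 to 0.618 and FT from -0.162 to 0.186 (0.0567 with replicate 3 alone). MAF5 rested on 35 to 281 pairs per library, FUL on 44 to 448 and FT on 49 to 316.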
